A study of Mus musculus with 24 samples.

Results

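The mouse mitochondrial genome carries 37 genes, and all 37 were present by symbol (beginning with mt-) among the 55401 genes of the deposited count table: 2 ribosomal RNA genes, 13 protein-coding genes and 22 transfer RNA genes. They were followed in C57BL6/J mice, an inbred strain, in the left ventricle of the heart, in skeletal muscle and in kidney, with no treatment or engineered allele in the labels. At 16.5 weeks of age the mice were 2 females (mice 14 and 15) and 2 males (mice 19 and 20), and at 86 weeks they were 2 other females (mice 11 and 12) and 2 other males (mice 14 and 17). The number 14 thus names a different mouse at each age. The 3 tissues came from the same 8 mice and gave 24 libraries of total RNA from which ribosomal RNA had been depleted. Values of single libraries are listed below in this order of mice, females first. The questions were how much of each library these genes take, how their proportions differ between tissues, and whether they differ between 86 and 16.5 weeks.

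Mitochondrial DNA is a small circle, and both of its strands are transcribed as long precursors by a single RNA polymerase, encoded in the nucleus by Polrmt, with the DNA-packaging factor Tfam. In these precursors tRNAs stand between most of the rRNA and protein-coding sequences, and the enzymes that cut the tRNAs out release the neighbouring RNAs. The 13 proteins are core subunits of respiratory complexes I, III, IV and V, which in heart, muscle and kidney tubules make most of the ATP, while the other subunits are encoded in the nucleus and imported.

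Positions are those of the mitochondrial chromosome in GRCm38, and sequences are those of the GENCODE M21 transcripts of that build. The rRNA genes are mt-Rnr1 (chrM:70-1024, the 12S rRNA of the small ribosomal subunit) and mt-Rnr2 (chrM:1094-2675, the 16S rRNA of the large subunit), and mt-Tv (chrM:1025-1093) fills the interval between them. The annotation places mt-Nd6 and 8 tRNA genes on the minus strand and the other 28 genes on the plus strand. The tRNA genes are 59 to 75 bases long, so a read from these loci can extend into a neighbour. Shown first are the 3 tRNAs with the highest mean count over the 24 libraries, mt-Tw (chrM:4950-5016, plus strand), mt-Ta (chrM:5018-5086, minus strand) and mt-Ty (chrM:5260-5326, minus strand), all within the same cluster of 5 tRNA genes. After them come mt-Ts1 (chrM:6870-6938, minus strand), whose count varied least among mice of all tRNAs, mt-Tv, whose order among tissues departed from that of other tRNAs, and mt-Tr (chrM:9808-9875, plus strand), which had the smallest p-value for age in left ventricle. Capitals mark the anticodon, and all are written 5′ to 3′ on the strand of the gene as DNA.
mt-Tw: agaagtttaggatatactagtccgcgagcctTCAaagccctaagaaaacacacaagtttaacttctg
mt-Ta: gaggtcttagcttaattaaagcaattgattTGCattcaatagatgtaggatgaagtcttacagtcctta
mt-Ty: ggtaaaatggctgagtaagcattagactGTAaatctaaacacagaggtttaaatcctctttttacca
mt-Ts1: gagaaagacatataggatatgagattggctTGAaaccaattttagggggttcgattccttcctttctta
mt-Tv: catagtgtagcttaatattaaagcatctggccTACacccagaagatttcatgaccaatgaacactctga
mt-Tr: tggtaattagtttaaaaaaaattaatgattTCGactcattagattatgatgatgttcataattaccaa

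Several members overlap on the genome, and counts there cannot be assigned to 1 gene by position alone. The longest overlap is that of mt-Atp8 and mt-Atp6, both ATP synthase subunits on the plus strand, which share 43 bases in different reading frames. The end of mt-Atp8 (chrM:7907-7969) is shown with the shared bases in capitals, starting at the ATG of mt-Atp6.
mt-Atp8 end: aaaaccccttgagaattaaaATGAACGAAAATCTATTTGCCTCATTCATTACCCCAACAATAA
mt-Nd4l and mt-Nd4 share 7 bases on the plus strand, mt-Nd5 and mt-Nd6 share 14 bases on opposite strands, and mt-Co1 and mt-Ts1 share 3 bases on opposite strands. Whether counting used strand is not given in the sources used here, so mt-Nd6 and the minus-strand tRNAs were taken as the table gives them, and reads of a gene and of the opposite strand cannot be told apart.

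Library totals ran from 52.6 to 103.8 M counts, with M for 1e+06. At that depth the Wilson 95% interval of a member share was at most 0.0122 percentage points to either side, which covers counting error only, so the spread among mice set the precision. No pair of libraries of 1 group agreed within sampling noise over genes. Summed over 5 markers each, left ventricle markers had 44295 to 54271 CPM (counts scaled to a library of 1e+06 counts, over all genes) in left ventricle against 9.58 to 471 CPM in skeletal muscle and 9.50 to 52.1 CPM in kidney. Skeletal muscle markers had 113056 to 125658 CPM in skeletal muscle and at most 179 CPM elsewhere, and kidney markers had 14505 to 17340 CPM in kidney and at most 78.6 CPM elsewhere. None of these markers was at 0 in all libraries of a group. A list of nuclear rRNA and other abundant noncoding RNA, of which 8 of 13 entries were found, held 1.16, 0.827 and 1.37% of counts in left ventricle, skeletal muscle and kidney. The rRNA entries Rn45s, Rn18s-rs5 and n-R5s were among those not found, so this sum does not give the nuclear rRNA that depletion left. The sum also lacks the nuclear noncoding RNA Malat1, which alone took 1.49 to 1.76% in left ventricle, 0.714 to 1.24% in skeletal muscle and 2.93 to 3.33% in kidney. The 471 CPM of heart markers belonged to mouse 17 at 86 weeks, whose skeletal muscle library also had the highest tRNA share of that tissue. Its part in the results was not tested beyond leaving it out, which is given beside the tissue comparisons. The muscle sampled and the region of the kidney are not named in the labels.

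Mitochondrially encoded RNA took the largest part of the counts in left ventricle, somewhat less in kidney and clearly less in skeletal muscle. Its share was 27.8, 25.8, 27.6 and 29.3% at 16.5 weeks and 29.4, 28.2, 26.98 and 28.6% at 86 weeks in left ventricle. Skeletal muscle had 14.1, 13.995, 16.2 and 16.6% at 16.5 weeks and 17.4, 14.4, 15.4 and 16.4% at 86 weeks. Kidney had 24.8, 22.1, 24.995 and 22.5% at 16.5 weeks and 24.2, 22.5, 21.9 and 25.1% at 86 weeks. Skeletal muscle lay below the other tissues in all 8 mice with no overlap, and the highest kidney values (25.1%) stayed under the lowest left ventricle value (25.8%). The means were 27.9 ± 1.21%, 15.6 ± 1.29% and 23.5 ± 1.40% (SD, n = 8) in the order left ventricle, skeletal muscle, kidney. Because rRNA was depleted during library preparation, the rRNA part of these shares is what depletion left. In bulk tissue, fewer cells of a type and less RNA per cell cannot be told apart.

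**Figure D1:**
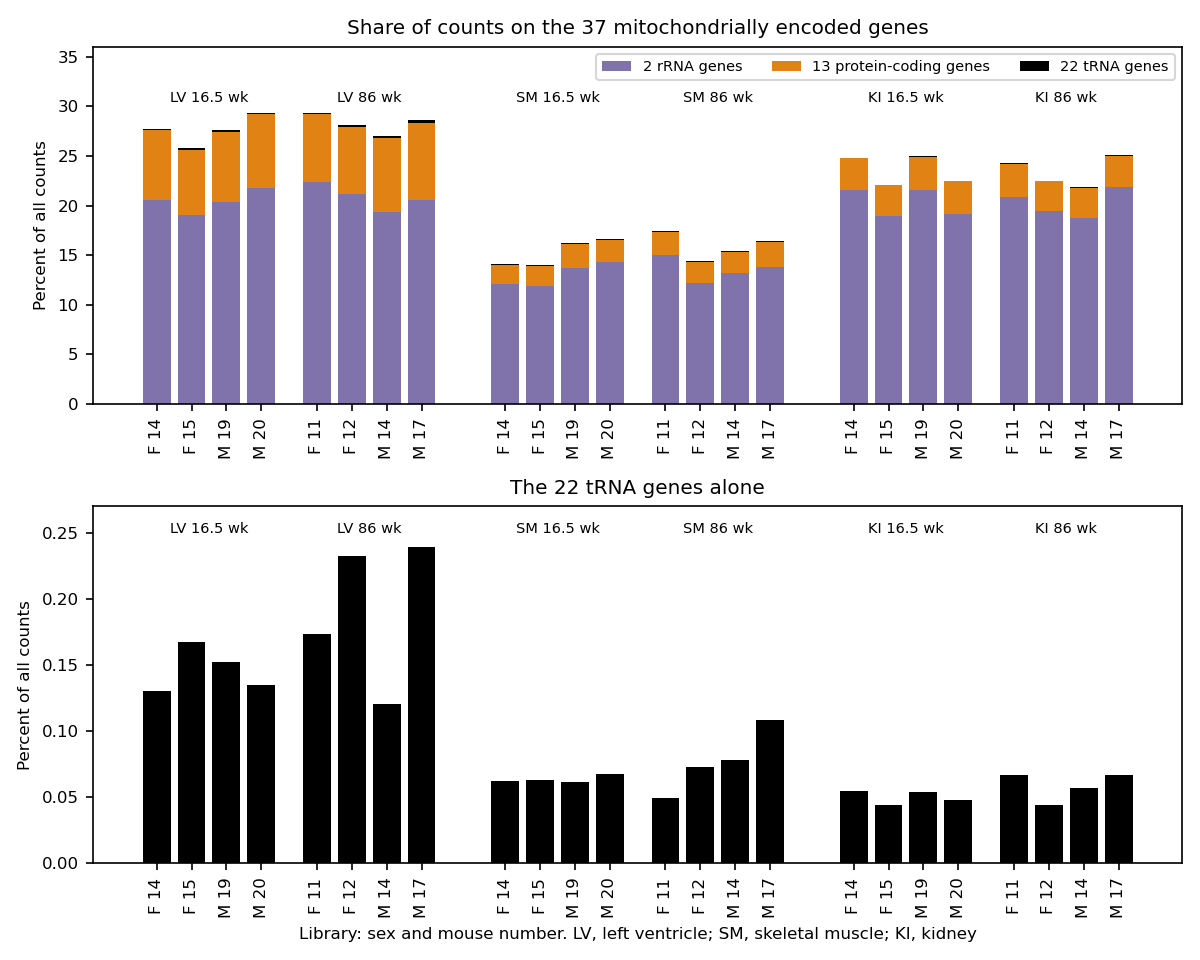
Percent of all counts (vertical axis) taken by mitochondrially encoded rRNA, coding and tRNA genes, with a stacked bar for each of the 24 libraries, by tissue and age. A lower panel shows the 22 tRNA genes alone. Left ventricle and kidney have similar rRNA shares (means of 20.6 and 20.3%), whereas their coding shares do not overlap (means of 7.13 and 3.18%).

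The 3 kinds of RNA gave different orders of tissues. The rRNA share was nearly equal in left ventricle (20.6 ± 1.11%, 19.1 to 22.3%) and kidney (20.3 ± 1.32%, 18.8 to 21.8%) and lower in skeletal muscle (13.3 ± 1.14%, 11.92 to 14.99%; mean ± SD and range, n = 8). The coding share was 7.13 ± 0.439% in left ventricle (6.53 to 7.84%), 3.18 ± 0.130% in kidney (3.01 to 3.37%) and 2.23 ± 0.198% in skeletal muscle (1.99 to 2.52%). No coding share of one tissue overlapped with another. Kidney thus lay near the heart in rRNA and nearer to skeletal muscle in coding RNA. Of the member counts, rRNA made up 73.9 ± 1.505% in left ventricle, 85.2 ± 0.809% in the skeletal muscle and 86.2 ± 0.631% in kidney.

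The tRNA share was small and the most variable. In left ventricle it was 0.1303, 0.167, 0.152 and 0.135% at 16.5 weeks and 0.174, 0.233, 0.1202 and 0.239% at 86 weeks. For skeletal muscle the values were 0.0618, 0.0631, 0.0614 and 0.0671% at 16.5 weeks and 0.0494, 0.0724, 0.0781 and 0.108% at 86 weeks. Those of kidney were 0.0544, 0.04403, 0.0537 and 0.0477% at 16.5 weeks and 0.0664, 0.0438, 0.0571 and 0.0666% at 86 weeks. The left ventricle values were all above those of the other tissues. Within left ventricle the 86-week mice held both the highest values (mice 12 and 17) and the lowest (male 14), so the ages overlapped, as they did in skeletal muscle and kidney. Of these, mouse 17 had the smallest left ventricle library (52.6 M counts), male 14 the largest (93.8 M) and mouse 12 75.4 M. In skeletal muscle the highest share lay in the smallest library (59.1 M, mouse 17 of 86 weeks) and the lowest in mouse 11 (100.6 M). In kidney the highest share lay in the largest library (82.9 M, mouse 17 of 86 weeks). The part of library size was not tested.

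Coding counts per rRNA count separated the heart from the other tissues. The rRNA counts are what depletion left, so differences in depletion and in the RNA of the tissue cannot be told apart in this ratio. Left ventricle had 34.3, 34.2, 34.4 and 34.3 at 16.5 weeks and 30.7, 31.8, 38.9 and 38.2 at 86 weeks, as coding counts per 100 rRNA counts. The mean was 34.6 ± 2.77 (SD, n = 8), against 16.8 ± 1.02 in skeletal muscle (15.2 to 18.4) and 15.8 ± 0.861 in kidney (14.5 to 17.2). In left ventricle the 4 mice of 16.5 weeks lay within 34.2 to 34.4, while at 86 weeks both females were lower and both males higher than all of them; this split was seen after the values and was not tested. Per 100 coding counts there were 2.38 ± 0.645 tRNA counts in left ventricle, 3.15 ± 0.668 in the skeletal muscle and 1.70 ± 0.275 in kidney, with overlap between tissues. The ratio of mt-Rnr2 to mt-Rnr1 counts stayed between 2.17 and 2.66 in the 24 libraries.

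**Figure D2:**
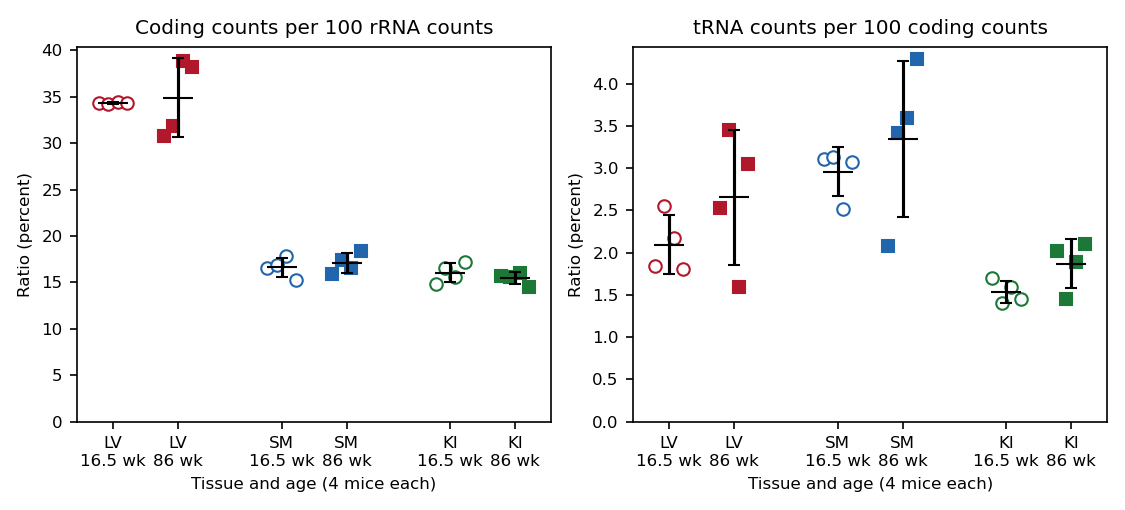
Ratios between the kinds of mitochondrially encoded RNA in each library, by tissue and age, with a point for each mouse and the mean of each group. Coding counts per 100 rRNA counts lie between 30.7 and 38.9 in left ventricle and between 14.5 and 18.4 in the other tissues, while tRNA per coding counts overlap among tissues.

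The rRNAs were the most abundant members. In left ventricle mt-Rnr1 had 62806, 55041, 58966 and 64839 CPM at 16.5 weeks and 63686, 64847, 56295 and 60798 CPM at 86 weeks. Skeletal muscle mt-Rnr1 was 32902, 34816, 41365 and 40295 CPM at 16.5 weeks and 45367, 36944, 36564 and 39837 CPM at 86 weeks. Kidney mt-Rnr1 was 63546, 53367, 63018 and 59703 CPM at 16.5 weeks and 65975, 56341, 54326 and 66128 CPM at 86 weeks. Left ventricle and kidney overlapped for mt-Rnr1, and every skeletal muscle value lay below both. For mt-Rnr2 the left ventricle libraries gave 142940.0, 135777, 145045 and 152686 CPM at 16.5 weeks and 159575, 146969, 137071 and 144560.0 CPM at 86 weeks. The skeletal muscle libraries gave 87515, 84364, 95373 and 103062 CPM at 16.5 weeks and 104551, 84682, 95121 and 97718 CPM at 86 weeks. Those of kidney gave 152294, 135644, 152683 and 132065 CPM at 16.5 weeks and 142944, 137780.0, 133571 and 152174 CPM at 86 weeks. The same order held for mt-Rnr2, again with overlap of left ventricle and kidney and none with skeletal muscle. Per kilobase of transcript, the mean level of mt-Rnr2 was 92022 CPM in left ventricle, 59449 CPM in skeletal muscle and 90009 CPM in kidney, and that of mt-Rnr1 was 63780, 40326 and 63142 CPM in the same order.

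Among the coding genes mt-Co1 (chrM:5328-6872), which encodes the catalytic subunit of cytochrome c oxidase (complex IV), had the highest counts. In left ventricle it reached 26682, 24737, 25958 and 28415 CPM at 16.5 weeks and 25852, 25634, 28318 and 29464 CPM at 86 weeks. In skeletal muscle it reached 6569, 6660.4, 8072 and 7360.2 CPM at 16.5 weeks and 7553, 6863, 7561 and 8543 CPM at 86 weeks. In kidney it reached 11135, 11072, 10514 and 10704 CPM at 16.5 weeks and 11765, 10435, 9717 and 10069.7 CPM at 86 weeks. The 3 tissues did not overlap, with means of 26882 ± 1660, 7398 ± 690 and 10676 ± 647 CPM (SD, n = 8). As a share of all coding counts, mt-Co1 took 37.7 ± 0.342% in left ventricle (36.98 to 38.11%), 33.2 ± 0.929% in skeletal muscle (31.7 to 34.8%) and 33.5 ± 1.79% in kidney (31.2 to 35.8%). The left ventricle share was higher than each value of the other tissues, which overlapped.

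Without the nuclear copies described below, the next coding genes by count were mt-Nd5, mt-Cytb and mt-Nd1. For mt-Nd5 (chrM:11742-13565), a membrane arm subunit of NADH dehydrogenase (complex I), left ventricle had 8179, 7495, 8601 and 8481 CPM at 16.5 weeks and 7807, 7229.7, 8824 and 8963 CPM at 86 weeks. Skeletal muscle had 2104, 2083, 2641 and 2247 CPM at 16.5 weeks and 2335, 2241, 2402 and 2865 CPM at 86 weeks. Kidney had 3786, 3341, 4397 and 4025 CPM at 16.5 weeks and 3659.9, 3388, 3829 and 4021 CPM at 86 weeks. The tissues again did not overlap, and kidney stood between heart and skeletal muscle. For mt-Cytb (chrM:14145-15288), cytochrome b of complex III, left ventricle had 7597, 7068, 7626 and 7962 CPM at 16.5 weeks and 7357, 7239.6, 8261 and 8229.8 CPM at 86 weeks. Its skeletal muscle values were 2148, 2146, 2534 and 2247 CPM at 16.5 weeks and 2568, 2286, 2181 and 2566 CPM at 86 weeks. Its kidney values were 3859, 3770.4, 4209.5 and 4285 CPM at 16.5 weeks and 3936, 3687, 3894 and 4109 CPM at 86 weeks. Within the coding counts mt-Cytb held a larger part in kidney, 12.5 ± 0.451% (11.97 to 13.003%), above every library of left ventricle (mean 10.8%) and skeletal muscle (mean 10.5%).

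For mt-Nd1 (chrM:2751-3707), the first coding gene after the rRNAs and also of complex I, left ventricle had 4921, 4537, 4788 and 5292 CPM at 16.5 weeks and 4804, 4717, 5049 and 5624 CPM at 86 weeks. In skeletal muscle mt-Nd1 was 1549, 1661, 2134 and 1847 CPM at 16.5 weeks and 2144, 1768, 1695 and 2064 CPM at 86 weeks. In kidney mt-Nd1 was 2159, 2046, 2450.5 and 2384 CPM at 16.5 weeks and 2175, 2016, 2088 and 2224 CPM at 86 weeks. Kidney and skeletal muscle overlapped for mt-Nd1. The gene mt-Nd6 (chrM:13552-14070), a complex I subunit and the sole coding gene on the minus strand, had 1306, 1366, 1441 and 1283 CPM at 16.5 weeks and 1334, 1576, 1210.2 and 1575 CPM at 86 weeks in left ventricle. Its skeletal muscle libraries had 618, 546, 595 and 529 CPM at 16.5 weeks and 600.4, 564, 524 and 670.2 CPM at 86 weeks. Its kidney libraries had 767, 694, 724 and 715 CPM at 16.5 weeks and 976, 763, 681 and 854 CPM at 86 weeks. Left ventricle was highest in every mouse. Per kilobase, mt-Nd6 stood at 0.598 of the level of mt-Nd5 in left ventricle, 0.868 in the skeletal muscle and 0.718 in kidney (means of 8 libraries).

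Per kilobase, mt-Co1 was the highest coding gene in each tissue (17400, 4788 and 6910 CPM in left ventricle, skeletal muscle and kidney) and mt-Nd3, a complex I subunit, the lowest (1218, 429 and 522 CPM). The median of the 13 coding genes was 4722, 1633 and 2086 CPM per kilobase. By complex, the 7 genes of complex I held 34.7, 37.9 and 35.7% of coding counts in left ventricle, skeletal muscle and kidney, the 3 of complex IV 48.6, 44.6 and 45.1%, and the 2 of complex V 5.91, 7.04 and 6.79%. Per kilobase, mt-Atp6 to mt-Atp8, which share a transcript, stood at 1.65, 1.68 and 1.67, and mt-Nd4 to mt-Nd4l at 2.02, 1.93 and 2.14. These shares and ratios, and those of single coding genes above, leave out the nuclear copies described below. With copies added, mt-Atp6 and mt-Atp8 stood at 11344 and 3180 CPM per kilobase in left ventricle. There mt-Nd4 and mt-Nd4l stood at 4855 and 3330 CPM per kilobase.

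**Figure D3:**
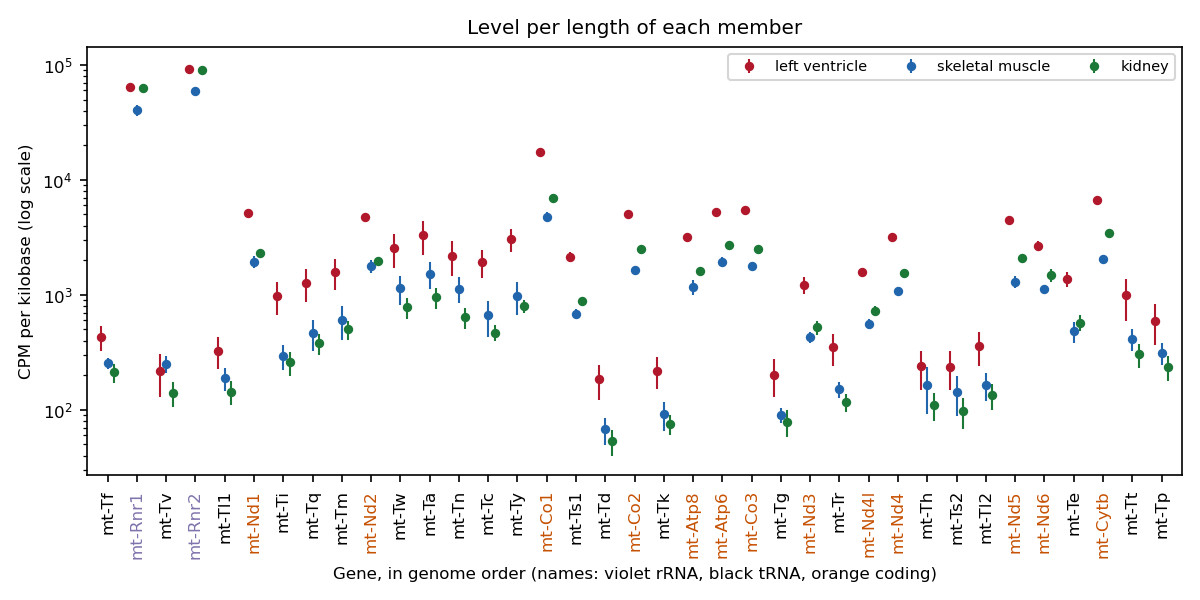
Mean level of each of the 37 genes in CPM per kilobase of transcript (logarithmic axis), in genome order, with a point for each tissue. The rRNA genes lie between 40326 and 92022 CPM per kilobase, and the coding genes lie below them. The tRNA genes range from 185 (mt-Td) to 3300 CPM per kilobase (mt-Ta) in left ventricle, where the upper ones overlap with the coding genes.

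Near-identical stretches of mitochondrial DNA also lie in nuclear chromosomes. The table held 17 annotated nuclear copies with at least 90% identity over at least 100 aligned bases. Together these 17 took 2.25 ± 0.130% of counts in left ventricle, 0.709 ± 0.0481% in the skeletal muscle and 1.02 ± 0.0290% in kidney (SD, n = 8), an order of tissues like that of the coding members. On chromosome 1, copies 99.7 to 100% identical to the members had 119, 118 and 119% of the counts of mt-Co2 (copy Gm28661), 117, 117 and 118% of mt-Atp6 (Gm10925) and 108, 106 and 107% of mt-Co3 (Gm28437) in left ventricle, skeletal muscle and kidney. The copy of mt-Co1 (Gm29216) had 15.3, 14.9 and 14.5%. These counts and those of the members are uncertain, since the authors' counting could have divided reads between copies; how multiply mapped reads were treated is not given in the sources used here. With the copies added, mt-Co1 remained highest per kilobase (21222 CPM in left ventricle), followed there by mt-Co2 (11628), mt-Co3 (11379) and mt-Atp6 (11344), and mt-Cytb went from rank 2 to rank 5 (6703). In each tissue mt-Co1, mt-Co2, mt-Co3 and mt-Atp6, 4 genes, then led.

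Among the tRNAs mt-Ta, the tRNA for alanine, was highest per kilobase (3300, 1529 and 949 CPM in left ventricle, skeletal muscle and kidney) and mt-Td, for aspartate, lowest (185, 67.5 and 53.4 CPM). The median of the 22 was 791, 303 and 246 CPM per kilobase. In left ventricle mt-Ta had 164, 250.5, 202 and 166 CPM at 16.5 weeks and 232, 347, 140.05 and 319 CPM at 86 weeks. Skeletal muscle gave 94.4, 98.7, 87.4 and 97.1 CPM at 16.5 weeks and 71.5, 111, 120.2 and 164 CPM at 86 weeks. Kidney gave 63.1, 52.8, 59.6 and 53.4 CPM at 16.5 weeks and 82.5, 53.04, 75.2 and 84.02 CPM at 86 weeks. Kidney was the lowest tissue by its mean for mt-Ta, although single libraries overlapped with skeletal muscle, whereas every kidney library had more mt-Co1 than any of skeletal muscle.

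For mt-Tw, the tRNA for tryptophan, left ventricle had 118, 189.5, 156 and 119 CPM at 16.5 weeks and 169.7, 251, 116 and 249 CPM at 86 weeks. Skeletal muscle mt-Tw was 67.4, 72.98, 64.7 and 70.9 CPM at 16.5 weeks and 49.9, 79.7, 83.1 and 124 CPM at 86 weeks. Kidney mt-Tw was 49.05, 39.98, 48.7 and 43.6 CPM at 16.5 weeks and 61.4, 43.5, 63.4 and 67.3 CPM at 86 weeks. The tRNA for tyrosine, mt-Ty, whose 5′ end faces mt-Co1, had 163, 201, 184 and 176 CPM at 16.5 weeks and 202, 267, 156 and 279 CPM at 86 weeks in left ventricle. In skeletal muscle mt-Ty was 49.7, 57.7, 58.6 and 61.5 CPM at 16.5 weeks and 44.9, 64.2, 74.6 and 112 CPM at 86 weeks. In kidney mt-Ty was 52.8, 47.7, 52.2 and 47.8 CPM at 16.5 weeks and 63.5, 44.9, 56.1 and 62.9 CPM at 86 weeks. In left ventricle and for all 3 genes, the libraries of the same mice were at the extremes of the 86-week group, with 12 and 17 high and male 14 low. The 5 tRNA genes from mt-Tw to mt-Ty, which lie side by side, held 52.1, 52.6 and 45.5% of tRNA counts in left ventricle, skeletal muscle and kidney, and the 8 minus-strand tRNAs held 64.7, 61.1 and 62.6%.

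The tRNA for valine, mt-Tv, was singled out after its values were seen. Left ventricle had 11.8, 11.5, 11.5 and 12.8 CPM at 16.5 weeks and 17.7, 27.3, 8.44 and 19.1 CPM at 86 weeks. Skeletal muscle mt-Tv stood at 15.1, 14.8, 15.1 and 17.96 CPM at 16.5 weeks and 13.9, 19.01, 21.3 and 21.6 CPM at 86 weeks. Kidney mt-Tv stood at 10.3, 6.59, 10.9 and 8.99 CPM at 16.5 weeks and 12.5, 6.16, 9.38 and 12.4 CPM at 86 weeks. For mt-Tv, skeletal muscle was not the low tissue, and its values fell inside the range of left ventricle.

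The spread among the 8 mice of a tissue differed by kind of RNA. The ratio of the highest to the lowest library had a median over the coding genes of 1.25 in left ventricle, 1.32 in the skeletal muscle and 1.22 in kidney. For the tRNAs the medians were 2.30, 2.24 and 1.73. The widest were mt-Tv in left ventricle (3.23), mt-Th, for histidine, in skeletal muscle (3.77) and mt-Ts2, a serine tRNA, in kidney (2.39). The exception was mt-Ts1, the serine tRNA that lies opposite the end of mt-Co1, with 1.34, 1.37 and 1.16. Per kilobase it held a steady ratio to mt-Co1, 0.123 ± 0.00573, 0.142 ± 0.00602 and 0.128 ± 0.00606 (SD, n = 8), whereas mt-Ta to mt-Co1 was 0.191 ± 0.0652, 0.319 ± 0.0691 and 0.138 ± 0.0304.

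Tissues were compared by edgeR's quasi-likelihood test on all 24 libraries, with log2 differences scaled by TMM (trimmed mean of M-values) and p-values adjusted by Benjamini-Hochberg over 45182 genes. A gene was called at an adjusted p under 0.05. Scalings differed between tissues, and so did the share of counts in single genes: Ttn, the giant sarcomere protein, took 16.1 ± 1.46% of skeletal muscle counts, 6.64 ± 0.283% in left ventricle and 0.0077% in kidney. TMM factors ran from 0.873 to 1.13 in left ventricle, 0.728 to 1.04 in skeletal muscle and 1.11 to 1.51 in kidney. Against TMM, scaling by total counts alone moved the median log2 difference of all genes from -0.12 to 0.20 for left ventricle against skeletal muscle, from -0.10 to 0.18 for kidney against left ventricle and from -0.24 to 0.36 for kidney against skeletal muscle. Both scalings are therefore given.

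Left ventricle had more of the coding RNAs and of most tRNAs than skeletal muscle. Of the 37 members 32 were called higher and 1 lower, a total of 33 against 27.8% of all genes called in this comparison (16% higher and 11.8% lower). The median log2 difference of the members was 1.10, and that of all genes tested -0.12. Summed endothelial markers stood at 574 to 685 CPM in left ventricle, 57.5 to 131 CPM in skeletal muscle and 209 to 318 CPM in kidney, and macrophage markers at 122 to 192, 21.3 to 91.5 and 73.3 to 191 CPM; their part in the tissue differences was not tested. All 13 coding genes were higher, from 0.93 for mt-Nd6 to 1.55 for mt-Co1, with a median of 1.19. Leaving out mouse 17 of 86 weeks in every tissue gave 33 calls as well.

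By role, mt-Co1 differed by 1.55 ± 0.117 (SE, adjusted p = 1.72e-11), mt-Nd5 by 1.48 ± 0.109 (SE, adjusted p = 9.64e-12) and mt-Cytb by 1.40 ± 0.11 (SE, adjusted p = 3.63e-11). The minus-strand coding gene mt-Nd6 differed by 0.93 ± 0.095 (SE, adjusted p = 5.68e-09). Of the tRNAs 19 were called higher, among them mt-Ty with 1.35 ± 0.102 (SE, adjusted p = 1.75e-11), mt-Tw with 0.83 ± 0.125 (SE, adjusted p = 4.19e-06) and mt-Ta with 0.78 ± 0.128 (SE, adjusted p = 1.6e-05). The 1 gene called lower was mt-Tv, -0.56 ± 0.155 (SE, adjusted p = 0.00648). Under total counts it was not called, and the members then had 36 higher and 0 lower (25.5% of all genes higher and 5.84% lower). Neither rRNA passed under TMM: mt-Rnr1 had 0.34 ± 0.144 (SE, adjusted p = 0.0801) and mt-Rnr2 0.31 ± 0.15 (SE, adjusted p = 0.136), although their CPM of all counts did not overlap. Both were called higher under total counts (0.66 and 0.63), by DESeq2 (0.40 and 0.37) and by limma-voom (0.35 and 0.32). The tRNAs mt-Ts2 and mt-Th also missed the threshold, with 0.42 ± 0.176 (SE, adjusted p = 0.0839) and 0.25 ± 0.172 (SE, adjusted p = 0.337).

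Kidney had less of every coding RNA and tRNA than left ventricle, while the rRNA shares of both overlapped. All 13 coding genes and all 22 tRNAs, 35 in all, were called lower, against 35% of all genes called (20% higher and 15% lower). The median of the members was -1.53, and that of all genes -0.10. Coding differences ran from -1.62 for mt-Co1 to -1.13 for mt-Nd6, and tRNA differences from -2.30 for mt-Tc, the cysteine tRNA, to -0.88 for mt-Tv. The rRNAs did not pass, with -0.30 ± 0.144 (SE, adjusted p = 0.116) for mt-Rnr1 and -0.31 ± 0.15 (SE, adjusted p = 0.114) for mt-Rnr2. Under total counts 35 were again called lower (8.69% of all genes lower). Both rRNAs were called lower as well by limma-voom and, in edgeR, without mouse 17 of 86 weeks (37 of 37 lower in each), and DESeq2 called 36.

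Kidney against skeletal muscle was the comparison in which the scaling set the direction. Under TMM 26 members were called lower and 0 higher, against 45.5% of all genes called (22.9% higher and 22.6% lower): all 22 tRNAs and the complex I genes mt-Nd1, mt-Nd2, mt-Nd3 and mt-Nd4l. Under total counts 17 were called higher, namely both rRNAs, all 13 coding genes, mt-Ts1 and mt-Te, and 9 tRNAs were called lower (36.1% of all genes higher and 5.45% lower). The 9 tRNAs were lower under both scalings. Under TMM the number called lower was 22 to 27 when each mouse was left out in turn (22 without mouse 11 or mouse 12 of 86 weeks, 27 without mouse 17 of 86 weeks), 22 with RLE factors and 23 by DESeq2. The call of mt-Nd4l lay near the threshold (adjusted p = 0.0498), and mt-Nd1 was not called with RLE factors or without mouse 11 of 86 weeks. The genes mt-Nd1, mt-Nd2, mt-Nd3, mt-Nd4l, mt-Ts1 and mt-Te, 6 in all, went from called lower to called higher.

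Changing the scaling adds about the same amount to every gene of a comparison, so differences are also given relative to the median of all genes under TMM. For kidney against skeletal muscle the tRNA median lay 0.70 below that of all genes, the coding median 0.10 above it and the rRNA median 0.26 above it. For left ventricle against skeletal muscle the medians lay 1.31 above it for coding genes, 0.97 for tRNAs and 0.45 for rRNAs. For kidney against left ventricle they lay below it by 1.30 for coding genes, 1.71 for tRNAs and 0.21 for rRNAs.

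**Figure D4:**
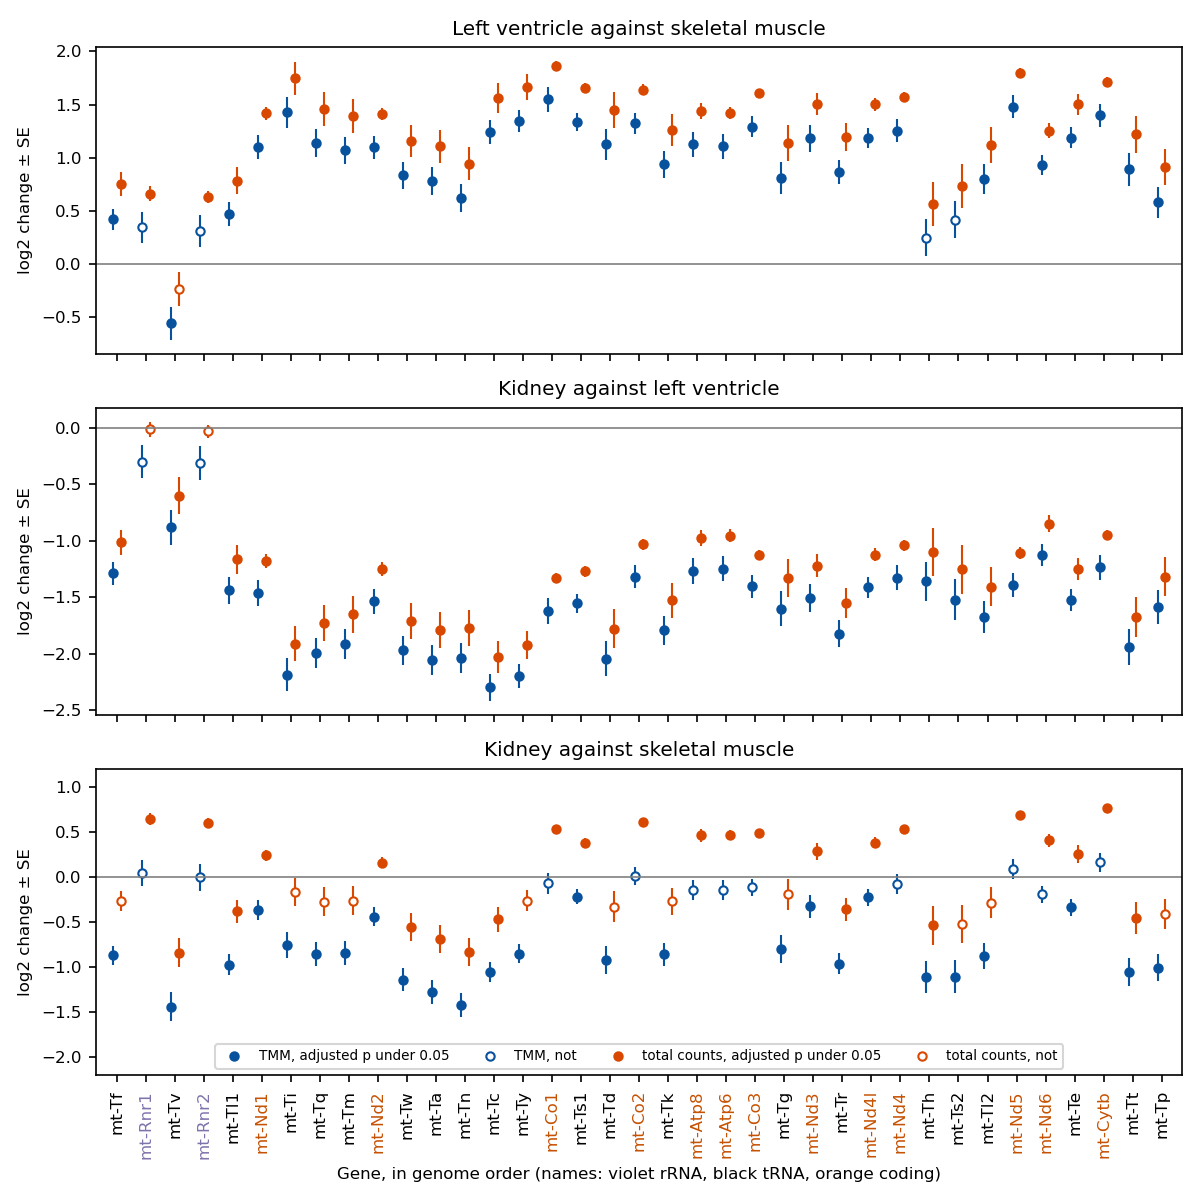
Log2 difference of each member between tissues (vertical axis) under TMM and under total counts, with genes in genome order (horizontal axis) and bars of 1 SE. Coding genes lie at 0.93 to 1.55 for left ventricle against skeletal muscle under TMM, and for kidney against skeletal muscle the median of the coding genes is -0.14 under TMM and 0.47 under total counts.

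No member differed between the ages past the threshold. In left ventricle 0 of 37 were called between 86 and 16.5 weeks, where 33 of 44546 genes were (0.0741%). In skeletal muscle 0 of 37 were called, where 8 of 43711 genes were (0.0183%). In kidney 0 of 37 were called, where 50 of 44572 genes were (0.112%). At an unadjusted p under 0.05 these tests, edgeR on the 8 libraries of a tissue with a term for sex, had 14, 0 and 1 members. Of all genes tested, 1501 of 44546, 2408 of 43711 and 3549 of 44572 passed that level. DESeq2 called 0 in each tissue (13, 0 and 4 unadjusted, beside 1276, 1996 and 3074 of all genes). So did limma-voom (10, 0 and 10, beside 1648, 2649 and 3720 of all genes). The 8 mice are separate animals, each with a single library per tissue. The p-values therefore concern spread between mice together with that of library preparation.

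The median log2 difference of the 37 members was 0.26 in left ventricle, 0.05 in the skeletal muscle and 0.02 in kidney, against 0.01, 0.02 and 0.02 for all genes tested. These medians moved when each mouse was left out in turn, over 0.16 to 0.42 in left ventricle, -0.013 to 0.106 in the skeletal muscle and -0.12 to 0.15 in kidney. Under total counts they were 0.32, 0.16 and 0.14, with 35, 37 and 22 of 37 members positive. The 14 left ventricular members at an unadjusted p under 0.05 were all tRNAs. All 22 tRNAs had positive differences in left ventricle, from 0.04 for mt-Ts1 to 0.54 for mt-Tt, with a median of 0.40. In skeletal muscle 21 of 22 were positive (median 0.11), and in kidney 19 of 22 (median 0.13). These tRNAs share precursors and libraries and are not independent of each other. Of markers of other cells, all 6 of macrophages (121.9 to 151 CPM summed at 16.5 weeks, 147 to 192 CPM at 86 weeks) had positive age differences in left ventricle. So did all 4 of atrial myocytes (17.4 to 138 and 17.5 to 184 CPM), 5 of 6 of adipocytes, 3 of 5 of fibroblasts and 2 of 5 of endothelium, with 0 called. All macrophage and atrial markers were positive in skeletal muscle and kidney too, with 0 called. The atrial sum was very low in these tissues, 3.96 to 10.4 CPM in skeletal muscle and 2.81 to 5.55 CPM in kidney. The 5 left ventricle markers were all negative in left ventricle (median -0.13). The part of these cells was not tested. The coding genes had medians of -0.0012, -0.02 and -0.17, and 12 of 13 were negative in kidney. Under total counts the coding medians were 0.05, 0.10 and -0.07, with 11, 13 and 1 of 13 genes positive, so the sign of the coding genes followed the scaling in left ventricle and skeletal muscle.

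For mt-Rnr2 the age difference was -0.02 ± 0.219 (SE) in left ventricle, -0.07 ± 0.151 (SE) in skeletal muscle and -0.11 ± 0.162 (SE) in kidney. For mt-Co1 it was -0.01 ± 0.177 (SE), -0.03 ± 0.12 (SE) and -0.15 ± 0.114 (SE).

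The members with the smallest p-values in left ventricle were tRNAs. The arginine tRNA mt-Tr had 18.1, 21.1, 21.9 and 17.3 CPM at 16.5 weeks and 25.2, 30.02, 18.2 and 38.4 CPM at 86 weeks, a difference of 0.44 ± 0.14 (SE, adjusted p = 0.853). The proline tRNA mt-Tp (chrM:15356-15422, minus strand) had 27.9, 35.7, 33.7 and 28.9 CPM at 16.5 weeks and 44.2, 61.4, 23.4 and 64.6 CPM at 86 weeks, a difference of 0.54 ± 0.186 (SE, adjusted p = 0.9997). The threonine tRNA mt-Tt (chrM:15289-15355), its neighbour, had 47.8, 59.2, 54.4 and 46.9 CPM at 16.5 weeks and 71.7, 105, 37.6 and 106 CPM at 86 weeks, a difference of 0.54 ± 0.191 (SE, adjusted p = 0.9997). In each of these 3, mouse 14 of 86 weeks lay within or under the range of 16.5 weeks while the other 86-week mice lay higher. Without that mouse mt-Tp (0.77, adjusted p = 0.0166) and mt-Tt (0.77, adjusted p = 0.0227) were called, beside 33 of all 46666 genes. There 20 members had an unadjusted p under 0.05, beside 2269 of all genes. Without mouse 12 of 86 weeks 1 member did (1257 of 46541 genes), and without mouse 17 of 86 weeks 2 did (2259 of 46001 genes), with 0 members called in both cases.

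In skeletal muscle the smallest p-values belonged to mt-Ty (0.20 ± 0.138 SE, adjusted p = 0.971), mt-Tc (0.23 ± 0.154 SE, adjusted p = 0.971) and mt-Ts2 (0.28 ± 0.194 SE, adjusted p = 0.972). The mt-Ty values of both ages are given above and overlap. The cysteine tRNA mt-Tc had 33.7, 38.6, 37.4 and 40.2 CPM at 16.5 weeks and 28.1, 42.7, 51.6 and 77.2 CPM at 86 weeks. For mt-Ts2 they were 6.3997, 7.7001, 6.51 and 7.77 CPM at 16.5 weeks and 5.23, 9.15, 8.94 and 15.8 CPM at 86 weeks. Mouse 17 of 86 weeks, the library with heart markers, was highest for all 3, and the ages overlapped for each. Without that mouse 0 members were called in skeletal muscle as well.

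In kidney the smallest were mt-Tw (0.26 ± 0.122 SE, adjusted p = 0.627), mt-Nd3 (-0.25 ± 0.123 SE, adjusted p = 0.644) and mt-Atp6 (-0.20 ± 0.101 SE, adjusted p = 0.661). The mt-Nd3 libraries had 197, 169, 195 and 204 CPM at 16.5 weeks and 209, 149, 143 and 187 CPM at 86 weeks. Those of mt-Atp6, subunit a of the ATP synthase proton channel, had 1849.7, 1868, 1989.9 and 1906 CPM at 16.5 weeks and 1935, 1671, 1669 and 1799.7 CPM at 86 weeks. The ages overlapped for these too. Whether the age difference varied between tissues was tested in the 24-library fit, and 0 of 37 members were called, where 18 of 45182 genes were (0.0398%). At an unadjusted p under 0.05 there were 0 members, beside 1868 of all genes, and DESeq2 and limma-voom called 0 members.

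**Figure D5:**
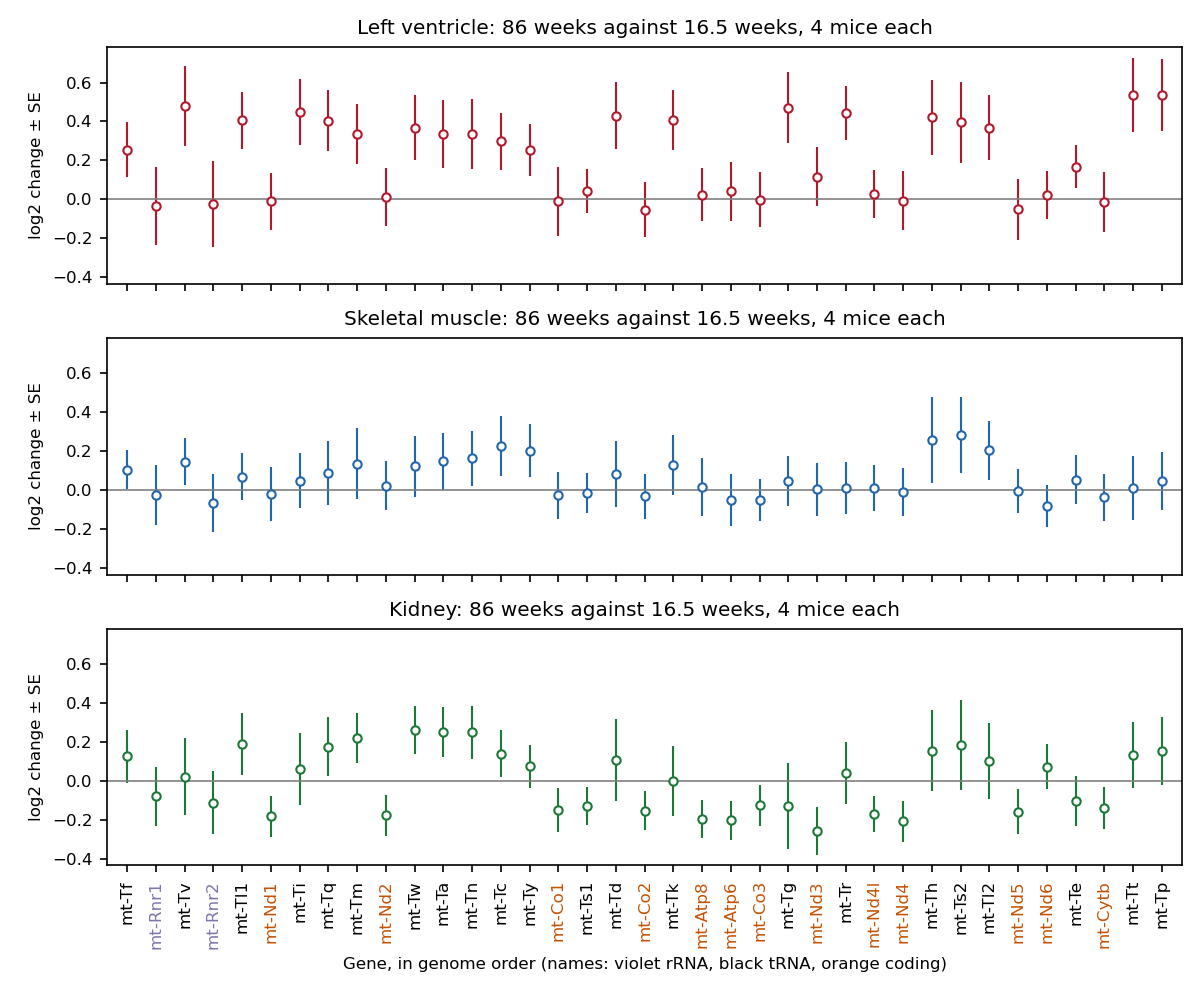
Log2 difference of each member between 86 and 16.5 weeks in each tissue, with genes in genome order and bars of 1 SE. In left ventricle the 22 tRNA points lie between 0.04 and 0.54 and the coding genes have a median of -0.0012, and no gene passes an adjusted p of 0.05.

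Male against female mice, 4 of each in a tissue, gave 0 calls among the 37 members in left ventricle (388 of all genes, 0.871%), in skeletal muscle (594, 1.36%) and in kidney (3380, 7.58%) by edgeR. At an unadjusted p under 0.05 there were 1, 7 and 3 members, beside 2273 of 44546, 4207 of 43711 and 7634 of 44572 genes. DESeq2 called 0 in each tissue and limma-voom 0, 0 and 1, the last being mt-Nd5 in kidney (0.28, adjusted p = 0.0424). The median difference was -0.01, 0.21 and 0.19. In skeletal muscle and in kidney 35 of 37 members were positive, among them all 22 tRNAs (32 of 37 in kidney under total counts). In left ventricle 18 of 37 members were positive, and the number rested on single mice: 33 were positive without mouse 14 of 86 weeks and 28 without mouse 12 of 86 weeks. By kind, all 13 coding genes were positive in left ventricle (median 0.18) and 3 of 22 tRNAs (median -0.09). Under total counts 12 of its 13 coding genes were positive, and 9 had an unadjusted p under 0.05, beside 2392 of 44546 genes. The smallest p-value in left ventricle under TMM belonged to mt-Ts1, 0.27 ± 0.113 (SE, adjusted p = 0.834). In skeletal muscle it belonged to mt-Ty, 0.44 ± 0.138 (SE, adjusted p = 0.2299), and in kidney to mt-Te, the glutamate tRNA, 0.33 ± 0.128 (SE, adjusted p = 0.173). In kidney mt-Nd5 was next with 0.28 ± 0.115 (SE, adjusted p = 0.1996), and its CPM, given above, did not overlap between the sexes. It was also called under total counts (0.20, adjusted p = 0.0486), and mt-Tw was called without mouse 14 of 16.5 weeks (0.41, adjusted p = 0.0472).

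The nuclear genes that work with these RNAs were followed in lists. The counts called in every list stand beside these shares of all 45182 genes called higher and lower. Under TMM they were 16 and 11.8% for left ventricle against skeletal muscle and 20 and 15% for kidney against left ventricle. For kidney against skeletal muscle they were 22.9 and 22.6%. Under total counts the first was 25.5 and 5.84% and the last 36.1 and 5.45%. For kidney against left ventricle 12462 genes were then higher and 3928 lower. The 25 nuclear-encoded partner subunits of the same complexes were called in the same direction in each of the comparisons with left ventricle: 25 of 25 were called higher in left ventricle than in skeletal muscle (median 1.14) and 25 of 25 lower in kidney than in left ventricle (median -1.26), with all-gene shares called as above. The smallest p-values were those of Cox4i1 (1.76 ± 0.0871 SE, adjusted p = 2.8e-15) and Atp5h (1.68 ± 0.0908 SE, adjusted p = 1.8e-14), subunits of complexes IV and V, and, for kidney against left ventricle, of Atp5o (-1.73 ± 0.0912 SE, adjusted p = 4.51e-15) and Cox5a (-1.60 ± 0.0894 SE, adjusted p = 1.59e-14). In kidney against skeletal muscle 5 were higher and 9 lower under TMM, led by the complex I subunits Ndufs7 (-0.80 ± 0.0934 SE, adjusted p = 3.86e-08) and Ndufv2 (-0.69 ± 0.0881 SE, adjusted p = 1.98e-07), and 19 higher and 1 lower under total counts. Per kilobase, the median partner subunit of the 24 with a length stood at 155, 51.6 and 77.2 CPM in left ventricle, skeletal muscle and kidney, against 4722, 1633 and 2086 CPM for the mitochondrial coding genes.

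Of 17 genes of mitochondrial transcription and replication, under TMM 7 were higher and 2 lower in left ventricle than in skeletal muscle, 6 higher and 5 lower in kidney than in left ventricle, and 10 higher and 6 lower in kidney than in skeletal muscle. Under total counts these were 13 and 1, 11 and 2, and 15 and 1. The shares of all genes given above the partner subunits apply here and to the lists that follow. The polymerase gene Polrmt was highest in kidney, by 0.25 ± 0.0837 (SE, adjusted p = 0.0206) against left ventricle and 0.49 ± 0.0841 (SE, adjusted p = 2.27e-05) against skeletal muscle. Tfam differed by -0.31 ± 0.0799 (SE, adjusted p = 0.00382) in left ventricle against skeletal muscle and by -0.26 ± 0.0799 (SE, adjusted p = 0.0103) in kidney against skeletal muscle. Under total counts the latter sign turned (0.35), and the former was 0.01. The mitochondrial topoisomerase Top1mt was lower in left ventricle than in both other tissues (-1.14 ± 0.106 SE, adjusted p = 9.9e-10 against skeletal muscle, and 2.03 ± 0.107 SE, adjusted p = 4.53e-15 for kidney against left ventricle).

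Of 35 genes of mitochondrial RNA processing and stability, 20 were higher and 6 lower in left ventricle than in skeletal muscle under TMM (27 and 1 under total counts). In kidney 6 were higher and 12 lower than in left ventricle (21 and 11 under total counts, so that the larger side turned), and 18 higher and 6 lower than in skeletal muscle (35 and 0). Lrpprc, which stabilises mitochondrial mRNAs, was highest in left ventricle, with 1.16 ± 0.0854 (SE, adjusted p = 1.09e-11) for left ventricle against skeletal muscle and -0.70 ± 0.0847 (SE, adjusted p = 9.35e-08) for kidney against left ventricle. The tRNA methyltransferase Trmt5 had 1.84 ± 0.119 (SE, adjusted p = 7.07e-13) and -1.80 ± 0.118 (SE, adjusted p = 4.72e-13), while Prorp, the nuclease of mitochondrial RNase P that cuts tRNA 5′ ends, was higher in kidney than in left ventricle (1.04 ± 0.0825 SE, adjusted p = 2.84e-11). Supv3l1, the helicase of RNA turnover, was higher in left ventricle than in skeletal muscle (1.16 ± 0.0791 SE, adjusted p = 2.22e-12).

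Of 78 mitochondrial ribosomal protein genes, 40 were higher and 8 lower in left ventricle than in skeletal muscle under TMM (67 and 1 under total counts). In kidney 8 were higher and 40 lower than in left ventricle under TMM, and 28 and 29 under total counts. The rRNAs, with which these proteins form the ribosome, passed in neither comparison by edgeR under TMM. In kidney against skeletal muscle 24 ribosomal protein genes were higher and 27 lower (63 and 6 under total counts). Examples were Mrps35 (1.69 ± 0.0861 SE, adjusted p = 4.81e-15 in left ventricle against skeletal muscle) and Mrps6 in kidney against left ventricle (1.49 ± 0.109 SE, adjusted p = 5.51e-12). Of 20 genes that charge mitochondrial tRNAs, 14 were higher and 1 lower in left ventricle than in skeletal muscle (18 and 1 under total counts), 5 and 5 in kidney against left ventricle (10 and 2), and 14 and 1 in kidney against skeletal muscle (19 and 1), where all 22 tRNAs were lower under TMM and 9 under total counts. Rars2, the arginine enzyme, was higher in kidney than in left ventricle (1.22 ± 0.0843 SE, adjusted p = 1.5e-12). Of 12 translation factors 8 were higher and 1 lower in left ventricle than in skeletal muscle (10 and 1 under total counts). They were 2 and 6 in kidney against left ventricle (4 and 5), and 7 and 2 in kidney against skeletal muscle (10 and 2). The elongation factor Tufm was higher in left ventricle than in skeletal muscle (1.01 ± 0.0965 SE, adjusted p = 1.74e-09).

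Of 10 regulators of mitochondrial biogenesis, under TMM 7 were higher and 1 lower in left ventricle than in skeletal muscle, 4 and 3 in kidney against left ventricle, and 9 and 1 in kidney against skeletal muscle (8 and 0, 4 and 1, and 10 and 0 under total counts). The coactivator gene Ppargc1a was higher in left ventricle (1.53 ± 0.0784 SE, adjusted p = 5.51e-15) and in kidney (1.38 ± 0.0781 SE, adjusted p = 1.65e-14) than in skeletal muscle and did not pass between them (-0.16 ± 0.0765 SE, adjusted p = 0.124). The nuclear receptor gene Esrrg was higher in left ventricle (3.14 ± 0.13 SE, adjusted p = 6.48e-17) and kidney (3.87 ± 0.134 SE, adjusted p = 3.22e-19) than in skeletal muscle.

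Between the ages 0 of the 197 genes of these 7 nuclear lists were called by edgeR in any tissue, and 6 in left ventricle, 19 in the skeletal muscle and 28 in kidney had an unadjusted p under 0.05. Of all genes, 1501 of 44546, 2408 of 43711 and 3549 of 44572 did. Under TMM the 25 partner subunits all had negative differences in each tissue, with medians of -0.16 in left ventricle, -0.19 in the skeletal muscle and -0.17 in kidney, and 1, 8 and 6 had an unadjusted p under 0.05. The smallest p-values were those of Cox6b1 in left ventricle (-0.33 ± 0.147 SE, adjusted p = 0.9997), Cox7c in skeletal muscle (-0.39 ± 0.117 SE, adjusted p = 0.673) and Atp5c1 in kidney (-0.23 ± 0.0906 SE, adjusted p = 0.5296). The other lists were mostly negative as well. Ribosomal protein genes had positive differences in 12, 8 and 9 of 78, RNA processing genes in 9, 8 and 5 of 35 and tRNA-charging genes in 4, 6 and 1 of 20. Transcription and replication genes had them in 4, 4 and 2 of 17, translation factors in 1, 1 and 2 of 12 and biogenesis regulators in 4, 4 and 2 of 10. Medians of all genes were 0.01, 0.02 and 0.02 under TMM and 0.06, 0.13 and 0.12 under total counts, for which list values are not given. Polrmt, Tfam, Lrpprc and Ppargc1a lay between -0.29 (Tfam in skeletal muscle, adjusted p = 0.820) and 0.04 (Tfam in left ventricle). Between the sexes 14 of the 197 were called in kidney, 13 higher and 1 lower, beside 7.58% of all genes, which is near that background and from which nothing is read: 6 ribosomal protein genes, 4 of the tRNA-charging genes, 2 translation factors and Trit1, a tRNA modifying enzyme (0.50 ± 0.0989 SE, adjusted p = 0.00501), were higher in males, and the biogenesis regulator Gabpb1 was lower (-0.80 ± 0.113 SE, adjusted p = 0.000339). In left ventricle and skeletal muscle 0 genes of these lists were called for sex (3 and 23 at an unadjusted p under 0.05, beside 2273 of 44546 and 4207 of 43711 genes).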

How the data were processed

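Total RNA was extracted with a Zymo Direct-zol kit and made into libraries with the Zymo-seq RiboFree kit, which depletes rRNA, per the labels' protocols. Reads were processed with STAR 2.7.6a and StringTie 2.1.1 on GRCm38.p6, per the submitters' processing notes. The authors deposited whole-number counts for 55401 genes in 24 libraries. The annotation release, strand setting, treatment of multiply mapped reads and the step that gave counts are not given in the sources used here. Gene identifiers were matched to GENCODE M21, 55141 of them and all 37 members. A library had 52.6 to 103.8 M counts.

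Counts of members were divided by the library total for shares and CPM, and by transcript length for levels per kilobase. Nuclear copies were found with blastn 2.17.0. Tests were edgeR 4.0.16 quasi-likelihood tests (R 4.3.3) with TMM, filterByExpr and Benjamini-Hochberg adjustment over all genes tested, with a threshold of 0.05 and two-sided p-values. The SE of a log2 difference was worked back from its test, as the absolute difference divided by the square root of the F statistic. Age and sex were fitted additively on the 8 libraries of a tissue (5 residual degrees of freedom), and tissues and the age difference between tissues on all 24 (15 residual degrees of freedom). Alternatives were DESeq2 1.42.0, limma-voom (limma 3.58.1), RLE factors, total counts, factors from nuclear genes, no low-count filter, no term for sex, the mouse as a replicate block and leaving out each mouse. The scripts were tested on simulated data.

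The same 8 mice gave the 3 tissues, per the mouse names in the labels, so the libraries of a mouse are paired. Deviations of same-mouse libraries from their group means correlated at -0.08 to 0.37 over 14877 genes, with 12 of 24 pairs over 0.1. The members and lists were chosen with earlier results of these data known. Values of every library were printed for the sums, the rRNA genes, the 4 coding and 3 tRNA genes with the highest mean count over all libraries, mt-Nd6 and the 3 smallest p-values for age per tissue. From each list up to 4 called genes were named, or up to 2 otherwise, with Polrmt, Tfam, Lrpprc and Ppargc1a in any case.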

Additional observations from a re-analysis of the deposited data

Results flagged for a closer look

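Of 174 groups of 4 mice looked at over 29 values, 2 had a mouse far from the other 3, where chance gives about 1 in 20. Both lie in skeletal muscle at 16.5 weeks. Male mouse 19 had 2.52 tRNA counts per 100 coding counts, below the other 3 mice (3.08 to 3.13). Male mouse 20 had 18.0 CPM of mt-Tv, above the other 3 (14.8 to 15.1).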

How the results depend on the processing

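For age 0 members were called under every alternative in skeletal muscle and kidney, and 0 to 2 in left ventricle when each mouse was left out in turn (2 without mouse 14 of 86 weeks). For sex, 1 member was called in kidney by limma-voom, 1 under total counts, and 0 to 1 when a mouse was left out (1 without mouse 14 of 16.5 weeks). Under total counts kidney against skeletal muscle had 17 members higher and 9 lower, and left ventricle against skeletal muscle 0 lower. There mt-Co1 (0.53), mt-Nd1 (0.24), mt-Nd6 (0.41) and mt-Rnr2 (0.60) turned to higher in kidney; the scaling is all that differs. The sign of mt-Rnr2, near 0 in that comparison, also turned with DESeq2 (0.056), RLE factors (0.056), nuclear factors (0.019) and no filter (0.041), and stood at 0.0029 to 0.093 without mouse 19 or 20 of 16.5 weeks or 11 or 14 of 86 weeks (-0.108 without mouse 17 of 86 weeks). That of mt-Rnr1 turned without mouse 14 of 16.5 weeks (-0.028) or mouse 17 of 86 weeks (-0.068); the cause of these turns was not tested. Among protein-coding genes alone the members held 9.96, 2.72 and 4.49% of counts (left ventricle, skeletal muscle, kidney), because the rRNA and tRNA genes are left out. Of the counts of all genes, the members with the nuclear copies added held 30.2% in left ventricle.

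With the mouse as a replicate block, 33 members were called between left ventricle and skeletal muscle, 35 between kidney and left ventricle and 25 between kidney and skeletal muscle, and 0 for the age difference between tissues. The block turned the sign of mt-Rnr2 in kidney against skeletal muscle (0.0064) and changed no other direction of the named members. No paired analysis was possible for age within a tissue because the ages are different mice that share a single number, 14.

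Counting error is small at this depth. What limits these results is 4 mice per age, rRNA values that follow depletion, tRNA counts from very short loci, coding counts that may be divided with nuclear copies, and a scaling between tissues that moves all genes. For age, total counts moved the median of all genes by more than 0.1 in skeletal muscle (to 0.13) and to 0.12 in kidney, with 0 members called.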
